A study of Mus musculus with 83 samples.

Results

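The genes of the small nuclear, nucleolar and other short structured non-coding RNAs were examined in Pol II CUT&Tag count tables of mouse embryonic stem cells (mESCs). Members were taken by name: every table row that begins with Snora, Snord, Scarna or Rnu followed by a digit, and the rows Rn7sk, Rmrp, Rpph1 and Terc. There were 168 such genes among 27752 genes in the tables of C64 cells and 55367 genes in the tables of B8 cells. By class they were 104 C/D snoRNA genes, 40 H/ACA snoRNA genes, 9 U snRNA genes of Pol II, 9 scaRNA genes, 5 U6-type and other Pol III genes, and the telomerase RNA gene. Only 18 of the 168 could be measured, for a reason of counting that is given below.

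CUT&Tag tethers a transposase to an antibody on chromatin, so that sequenced fragments mark where the protein, here Pol II, sat. C64 is a line of the JM8.N4 mESCs in which both copies of TBP, the TATA-box binding protein, carry a minimal auxin-inducible degron (mAID-TBP), so that indole-3-acetic acid (IAA) leads to degradation of TBP. B8 is a single clone of C64 that lacks Tbpl1, which encodes TRF2, a paralog of TBP. All groups therefore carry the degron, controls included. Per the study, these cells also carry a HaloTag on the largest subunit of Pol II and a GFP tag on histone H3.3. The study describes its control treatment as DMSO. In run 2, C64 cells were given heat shock (HS, 42 °C for 30 min) after 500 µM IAA for 6 h (HS+IAA), HS without IAA, IAA for 6 h alone, or neither (control). In run 3, C64 cells were given 25 µM retinoic acid (RA) for 16 h together with IAA for 16 h (RA+IAA), RA without IAA, IAA for 16 h alone, or neither; the RA concentration is that of the sample labels, and the study's methods give a lower one. In runs 6 and 8, B8 cells were given IAA for 6 h or left as controls. Each of these 12 groups held 2 libraries, 24 libraries in all, described by the study as replicates of the treatment, and p-values measure the spread between such pairs. The 2 libraries are called a and b in runs 2 and 8, where the table columns carry no usable number, and 1 and 2 in runs 3 and 6.

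These RNAs do housekeeping work on other RNAs. U snRNAs build the spliceosomes, C/D snoRNAs guide 2′-O-methylation and H/ACA snoRNAs guide pseudouridylation of ribosomal RNA, scaRNAs do the same for snRNAs in Cajal bodies, and a few snoRNAs such as U3 and U8 are needed for the cutting of the ribosomal RNA precursor. Most mouse snoRNAs are processed from introns of host genes and have no promoter of their own. U snRNA genes and the free-standing snoRNA genes instead have a compact promoter with a proximal sequence element (PSE) bound by SNAPc; Pol II serves most of them, whereas U6, 7SK, RNase P RNA and RNase MRP RNA genes have a TATA-like element beside the PSE and are served by Pol III. TBP takes part at both kinds of promoter.

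The tables counted a read pair only when it touched 1 gene, over whole genes and on either strand. Of the 168 genes, 150 lie wholly inside another annotated gene and had 0 counts in all 24 libraries, which reflects the counting rule and says nothing of Pol II there. The annotation placed 17 of them in Snhg14, 5 in Tex14, 4 in Snhg12, 4 in Rpl13a, and 3 each in Gas5, Hspa8, Rpl23a, Snhg16 and 2410006H16Rik. The genes left to measure were 4 of 104 C/D genes (Rnu3a, Snord13, Snord104, Snord118), 2 of 40 H/ACA genes (Snora17, Snora43), 4 of 9 U snRNA genes (Rnu12, Rnu2-10, Rnu1b1, Rnu1b2), 2 of 9 scaRNA genes (Scarna2, Scarna17), all 5 Pol III genes (Rn7sk, Rmrp, Rpph1, Rnu6, Rnu6-ps2), and Terc. Together they held 5684 counts over the 24 libraries, 57 to 517 per library. With 100 counts or more over all libraries there were 13 of them, and 9 passed the filter on low counts in at least 1 planned comparison.

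**Figure D1:**
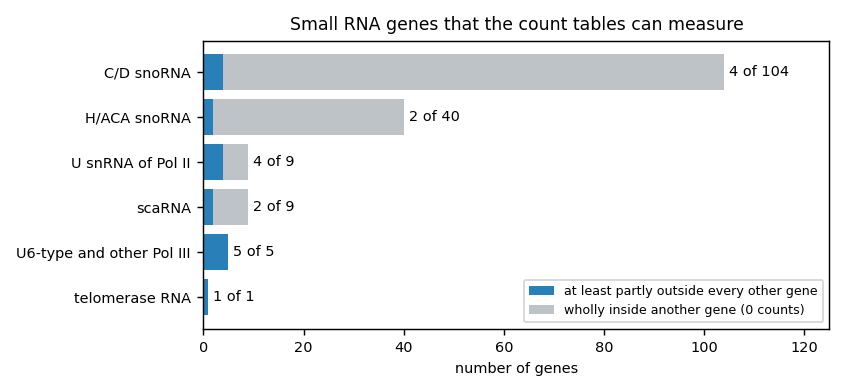
Number of genes (x axis) in each class of small RNA genes (y axis), split into genes at least partly outside every other annotated gene (blue) and genes wholly inside one (grey). Of 104 C/D genes only 4 are blue, of 40 H/ACA genes 2, and of the 5 Pol III genes all 5.

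The bases just upstream of the measurable genes are shown because they show which of these genes have snRNA-type promoter letters before them and which do not. The 80 bases before each annotated start were read from the RefSeq GRCm38.p6 genome, on the gene's own strand. Capitals mark TCACC or GACCG, 5 letters seen at the start of PSEs in several of these promoters, with the first base between 70 and 45 bases before the start, and TATA with its first base between 40 and 20 bases before it. The letters were chosen after these sequences had been read, so their presence in the genes is a description. Among 32851 RefSeq promoters, 3.7% held TCACC or GACCG in that window, 5.81% held TATA in its window and 0.174% held both. Of the 17 genes searched, 10 held TCACC or GACCG and 3 (Rnu12, Rn7sk and Rpph1) held TATA. 
Rnu12, U12 snRNA, chr15:83149564-83149643, plus strand: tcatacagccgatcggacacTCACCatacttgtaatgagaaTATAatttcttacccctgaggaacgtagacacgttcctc
Rnu2-10, U2 snRNA, chr11:101658158-101658237, plus strand: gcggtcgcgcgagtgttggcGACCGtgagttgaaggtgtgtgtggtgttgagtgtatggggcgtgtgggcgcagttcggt
Rn7sk, 7SK RNA, chr9:78175634-78175713, minus strand: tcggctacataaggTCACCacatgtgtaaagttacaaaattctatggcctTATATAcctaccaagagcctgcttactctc
Rmrp, RNase MRP RNA, chr4:43493064-43493143, minus strand: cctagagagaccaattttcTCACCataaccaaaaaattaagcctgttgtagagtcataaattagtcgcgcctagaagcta
Rpph1, RNase P RNA, chr14:50807768-50807847, minus strand: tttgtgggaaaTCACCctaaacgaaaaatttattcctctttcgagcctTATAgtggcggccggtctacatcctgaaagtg
Rnu3a, U3 snoRNA, chr10:40258387-40258466, plus strand: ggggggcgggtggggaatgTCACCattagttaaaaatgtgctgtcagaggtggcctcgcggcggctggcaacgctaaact
Snord13, U13 snoRNA, chr8:31149968-31150047, minus strand: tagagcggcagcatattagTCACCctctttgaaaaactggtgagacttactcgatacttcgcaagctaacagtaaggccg
Snord118, U8 snoRNA, chr11:69073347-69073426, plus strand: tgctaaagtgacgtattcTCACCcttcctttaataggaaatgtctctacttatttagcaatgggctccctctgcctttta
Snord104, C/D snoRNA, chr11:106500913-106500992, plus strand: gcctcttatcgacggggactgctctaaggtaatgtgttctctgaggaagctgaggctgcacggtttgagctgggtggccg
Snora17, H/ACA snoRNA, chr2:26639322-26639401, minus strand: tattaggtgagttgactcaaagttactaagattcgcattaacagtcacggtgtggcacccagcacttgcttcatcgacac
Snora43, H/ACA snoRNA, chr2:26637986-26638065, minus strand: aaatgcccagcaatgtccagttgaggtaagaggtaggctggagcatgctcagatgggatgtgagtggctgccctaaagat
The stretches before Rnu1b1 and Rnu1b2 held GACCG, and those before Scarna2, Terc, Rnu6 and Rnu6-ps2 held neither set of letters. No match says only that these letters are not in this window. An octamer (ATGCAAAT or its reverse complement ATTTGCAT, either strand, first base 250 to 150 bases before the start) stood before 5 of the 17 genes (Rnu12, Rnu2-10, Rmrp, Snord13 and Snord118) and in 0.661% of the promoters.

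For the genes whose levels were lower with IAA (below), the RNA-coding sequence itself is shown, because these genes are short and 3 of them sit inside longer non-coding transcripts. RefSeq places Snora17 and Snora43 within Snhg7, and Snord104 within Gm36220, although the annotation used for counting held neither as an overlapping gene. Capitals mark the ACA box close to the 3′ end of the H/ACA RNAs, and in Snord104 the C box (TGATGA) and the D box (CTGA) that C/D proteins bind. 
Snora43, chr2:26637847-26637985, minus strand: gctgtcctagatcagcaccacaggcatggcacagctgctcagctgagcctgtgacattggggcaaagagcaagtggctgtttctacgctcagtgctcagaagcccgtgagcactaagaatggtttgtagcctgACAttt
Snora17, chr2:26639190-26639321, minus strand: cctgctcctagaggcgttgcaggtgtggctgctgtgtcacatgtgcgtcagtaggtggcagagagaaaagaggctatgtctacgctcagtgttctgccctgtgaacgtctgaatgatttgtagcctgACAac
Snord104, chr11:106500993-106501062, plus strand: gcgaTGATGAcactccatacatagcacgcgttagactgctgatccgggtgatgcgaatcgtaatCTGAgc
The genes of Snora43, Snora17 and Snord104 measured 139, 132 and 70 bases. A CUT&Tag fragment can be longer than such a gene and reach past both its ends, so a count here marks Pol II at or around the gene, and levels were not compared per length.

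Depth limits every value that follows. The C64 libraries held 3854622 to 5056322 counts, those of B8 in run 6 held 900651 to 1157308, and those in run 8 held 2330887 to 2523832. Levels are given as CPM, the count scaled to 1000000 counts per library with TMM-scaled totals over the 27752 genes shared by all tables; 1 CPM stood for 1.02 to 2.33 counts in a B8 library and 4.27 to 5.24 in a C64 library. Tbpl1 had 0 to 4.37 CPM in B8 libraries, against 6.23 to 16.0 CPM in C64 libraries, and the groups did not overlap. The mESC markers were detected, among them Esrrb with 205 to 1243 CPM, except Sox2, which lies wholly inside Sox2ot in the annotation and so was at 0 in every library under the same counting rule; the fibroblast markers summed to 21.3 to 49.99 CPM over all libraries, and the primitive endoderm markers to 127 to 271 CPM. In control library b of run 2 the small RNA genes summed to 110.5 CPM, against 55.2 CPM in control library a, and 9 of the 13 better-counted genes stood at least as high in b as in any other library of that run; the log2 fold changes of Snora43 and of the heat shock fits that rest on library b are also given without it.

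Among U snRNA genes, Rnu12 was the best counted of all 168 genes, with 1198 counts. U12 snRNA belongs to the minor spliceosome, which removes a rare class of introns. Rnu12 (chr15:83149644-83149794, no other gene overlapping) averaged 14.9 CPM over the 8 B8 libraries and 13.3 CPM over the 16 C64 libraries. It had 3.81 and 5.34 CPM in HS+IAA cells, 10.0 and 11.5 CPM in HS cells, 12.4 and 16.7 CPM in IAA cells, and 10.3 and 22.4 CPM in control cells of run 2. In run 3 it had 13.5 and 11.2 CPM in RA+IAA cells, 13.6 and 8.01 CPM in RA cells, 14.6 and 21.1 CPM in IAA cells, and 17.4 and 20.5 CPM in control cells. The HS+IAA libraries were the 2 lowest of all 24, and the RA libraries lay below the control libraries of their run. Neither order was counted over all genes.

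Rnu2-10, a gene of the U2 snRNA of the major spliceosome, averaged 5.77 CPM in B8 and 5.29 CPM in C64 libraries. Its lowest C64 library had 2.34 CPM (HS) and its highest 7.56 CPM (control of run 3). The 4 B8 IAA libraries had 4.15, 4.11, 4.37 and 5.16 CPM, against 8.19, 6.88, 5.56 and 7.78 CPM in the B8 controls, without overlap on 5 to 17 counts each. The share of all genes without overlap there was not counted. Rnu1b1 and Rnu1b2, genes of the U1 snRNA that recognises the start of introns, share an identical 165-base sequence, so reads in them cannot be assigned to one or the other; they had 92 and 100 counts over all libraries. The U snRNA class summed to 12.7 ± 2.33 CPM in HS+IAA cells, 17.2 ± 2.09 in HS cells, 19.3 ± 6.41 in IAA cells and 23.3 ± 11.4 in control cells of run 2 (SD, n = 2 each).

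Among Pol III genes, Rn7sk carried most of the signal that Pol II CUT&Tag gave. 7SK RNA holds the kinase P-TEFb, which releases paused Pol II, in an inactive complex. Rn7sk (chr9:78175303-78175633, minus strand, no overlapping gene) averaged 11.7 CPM in B8 and 9.95 CPM in C64 libraries, with 891 counts. It had 4.66 and 4.20 CPM in HS+IAA cells, 5.96 and 5.23 CPM in HS cells, 8.25 and 12.7 CPM in IAA cells, and 7.09 and 12.0 CPM in control cells. The 4 libraries with heat shock lay below the 4 without it, an order that was not counted over all genes. In run 3 it had 16.1 and 13.7 CPM in RA+IAA cells, 10.9 and 14.2 CPM in RA cells, 10.0 and 13.1 CPM in IAA cells, and 9.02 and 12.0 CPM in control cells.

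Rmrp, the RNA of the RNase MRP that cuts pre-ribosomal RNA, had 140 counts on the 117 of its 281 bases that lie outside Ccdc107. It had 0.635 and 1.72 CPM in HS+IAA cells, against 2.13 and 2.21 CPM in HS cells, and 0.651 and 1.25 CPM in IAA cells, against 1.72 and 3.63 CPM in control cells of run 2. In each of the 4 C64 backgrounds both IAA libraries lay below both libraries without IAA, with 3 to 9 counts per IAA library. How many of all genes did so was not counted. In B8 cells the libraries of Rmrp overlapped, with 1 to 3 counts each. Rpph1, the RNA of RNase P that trims the 5′ ends of tRNAs, had 34 counts in all, since only 35 of its 319 bases lie outside Ccnb1ip1. Rnu6, a U6 snRNA gene of the spliceosome's catalytic core, had 4 counts and Rnu6-ps2 had 2, too few for a level. Both were placed in the Pol III class by name only, and neither had PSE letters or TATA in the windows searched. Pol III occupancy was measured in other samples of the study that are not analysed here, so these values are of Pol II antibody signal only.

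Among C/D genes, Rnu3a was the best counted. U3 snoRNA is needed for the first cuts that free 18S ribosomal RNA. Rnu3a, annotated more than once over the same place, averaged 9.03 CPM in B8 and 8.50 CPM in C64 libraries, with 759 counts, its lowest library had 2.62 CPM (B8 IAA of run 8) and its highest 15.3 CPM (B8 control of run 8). Snord13, U13, is a guide for 18S RNA acetylation in human cells; it averaged 4.85 CPM in B8 and 5.04 CPM in C64 libraries with 448 counts. Neither gene kept 1 direction with IAA over all backgrounds, although libraries were apart in some of them. Both IAA libraries of Rnu3a lay below both others under retinoic acid and in B8 run 8. Those of Snord13 lay below under heat shock and above in B8 run 8. The share of all genes apart in this way was not counted. Scarna2, a guide for U2 snRNA modification in human cells, averaged 2.29 CPM in B8 and 3.29 CPM in C64 libraries. In run 2 it had 1.52 and 1.88 CPM in IAA cells, against 1.72 and 7.91 CPM in control cells. Terc, the template RNA of telomerase, had 114 counts and 0 to 11 counts per library. Scarna17 had 49 counts in all.

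**Figure D2:**
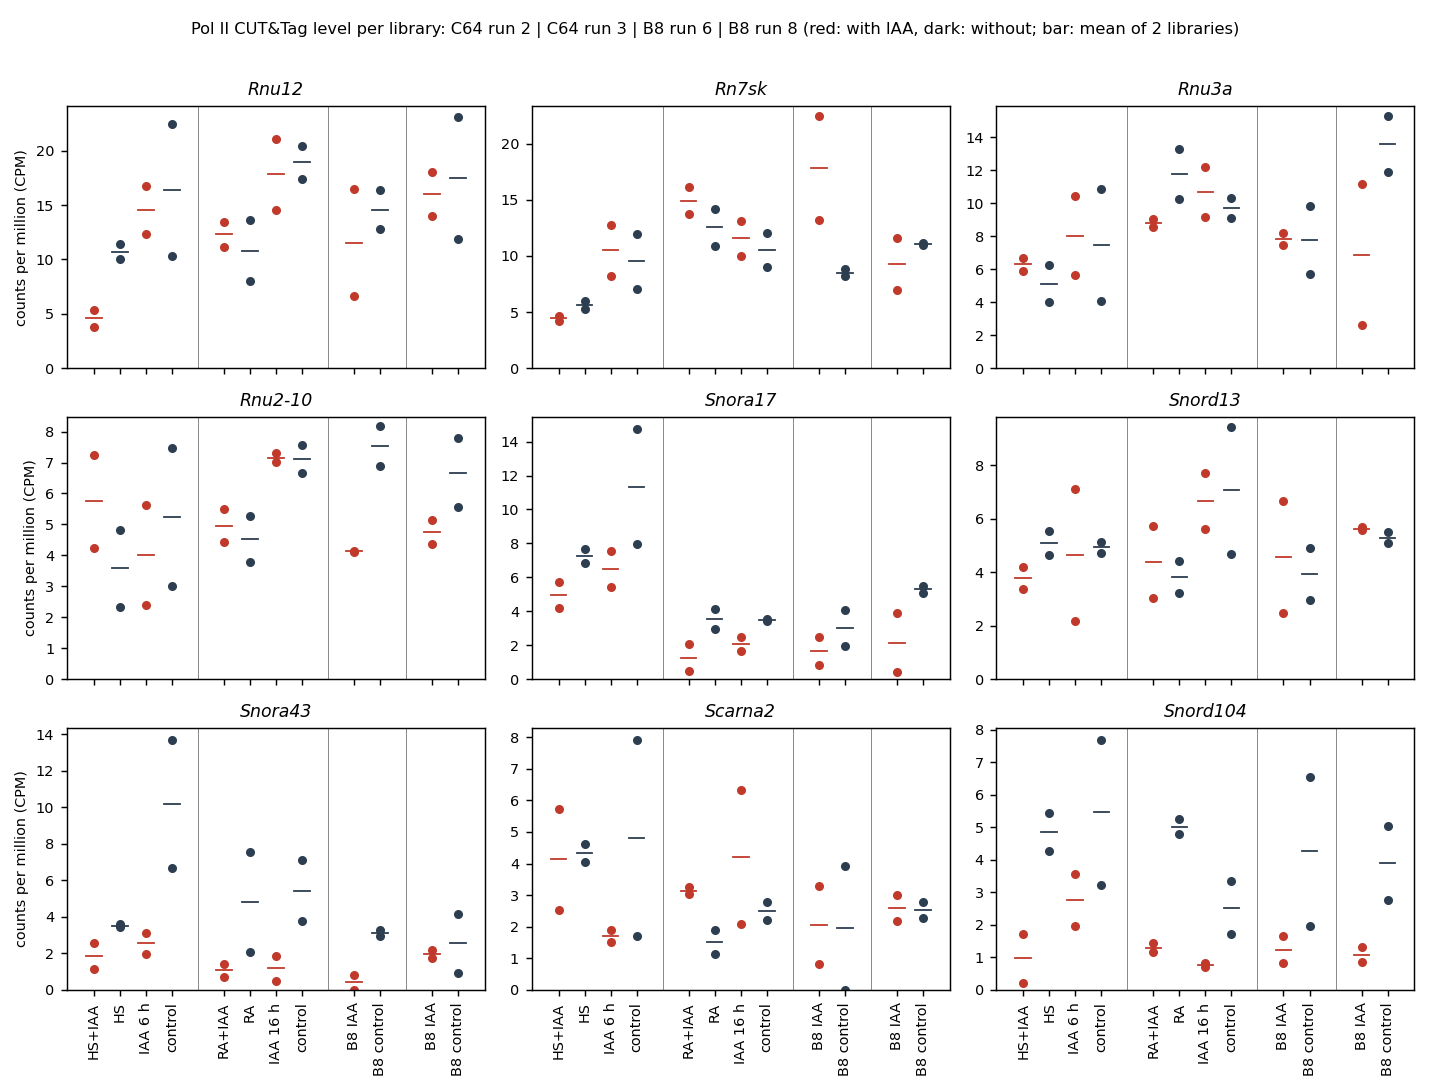
CPM per library (y axis, linear from 0) of the 9 small RNA genes that passed the filter in a planned comparison; each point is 1 library, bars are means of 2, red marks IAA and dark no IAA, and lines divide C64 run 2, C64 run 3, B8 run 6 and B8 run 8. In Snora43, Snora17 and Snord104 the red points sit low in nearly every pair, as in RA+IAA cells (Snord104, 1.43 and 1.16 CPM) beside RA cells (5.24 and 4.81 CPM), and in Rnu12 the HS+IAA pair is lowest.

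The first question of the design was whether these genes kept their Pol II when TBP was depleted. In 6 separate backgrounds (untreated run 2, heat shock, untreated run 3, retinoic acid, B8 run 6 and B8 run 8), which share no library, the same 4 genes had a lower mean with IAA every time: Snora43, Snora17, Snord104 and Snord118. They were 4 of the 13 genes with 100 counts or more, and across all genes of the tables with that many counts 4.67% did the same (892 of 19098). In all 4 genes both IAA libraries lay below both libraries without IAA in 5 of the 6 backgrounds; 0.518% of all genes with 100 counts (99 of 19098) did so in 5 or 6. No test was made of these counts.

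Snora43 and Snora17 are taken first, then Snord104 and Snord118. Snora43 had 1.95 and 3.13 CPM in IAA cells, against 6.66 and 13.7 CPM in control cells of run 2, and 2.54 and 1.14 CPM in HS+IAA cells, against 3.62 and 3.42 CPM in HS cells. In run 3 it had 1.88 and 0.469 CPM in IAA cells, against 7.09 and 3.78 CPM in control cells, and 1.43 and 0.697 CPM in RA+IAA cells, against 7.55 and 2.06 CPM in RA cells. None of these 4 pairs overlapped. The mean with IAA was 0.25 times the mean without it in untreated cells of run 2, 0.524 times under heat shock, 0.216 times in untreated cells of run 3 and 0.221 times under retinoic acid. In B8 cells it had 0.831 and 0 CPM with IAA in run 6, against 3.27 and 2.95 CPM in controls, and 2.18 and 1.72 CPM in run 8, against 4.17 and 0.915 CPM, where the libraries overlapped on 2 to 9 counts.

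Snora17, which lies in the same RefSeq transcript, had 5.43 and 7.52 CPM in IAA cells, against 7.95 and 14.8 CPM in control cells of run 2. Under heat shock it had 5.72 and 4.20 CPM with IAA, against 7.66 and 6.84 CPM without. In run 3 it had 2.50 and 1.64 CPM in IAA cells, against 3.44 and 3.56 CPM in control cells, and 2.04 and 0.465 CPM in RA+IAA cells, against 2.94 and 4.12 CPM in RA cells. The libraries of every C64 pair were apart, but the gap was smaller than for Snora43, with means 0.355 to 0.684 times those without IAA. In B8 run 6 the libraries overlapped on 1 to 5 counts, and in run 8 it had 0.437 and 3.87 CPM with IAA, against 5.09 and 5.49 CPM without.

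Snord104, a methylation guide within Gm36220 and on another chromosome than Snhg7, had 0.212 and 1.72 CPM in HS+IAA cells, against 4.26 and 5.43 CPM in HS cells. It had 1.43 and 1.16 CPM in RA+IAA cells, against 5.24 and 4.81 CPM in RA cells, and 0.834 and 0.703 CPM in IAA cells of run 3, against 1.72 and 3.33 CPM in control cells. In B8 cells it had 0.831 and 1.64 CPM with IAA in run 6, against 6.55 and 1.97 CPM, and 1.31 and 0.859 CPM in run 8, against 2.78 and 5.03 CPM. All of these pairs were apart in CPM, but in B8 run 6 the nearest libraries had equal counts. There 2 counts stood for 1.64 CPM with IAA, and 2 counts for 1.97 CPM without it. Only in untreated cells of run 2 did 1 IAA library (3.55 CPM) exceed a control library (3.22 CPM). The mean with IAA was 0.199 to 0.504 times that without.

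Snord118, the U8 snoRNA needed for 5.8S and 28S ribosomal RNA, is the one of the 4 with PSE letters before it and with few counts. In B8 run 8 it had 1 and 0 counts with IAA, against 11 and 12 counts in controls, its largest gap. In C64 it had 1 and 3 counts with IAA against 5 and 5 in run 2, 0 and 3 against 3 and 4 under heat shock, 4 and 0 against 8 and 10 in run 3, and 5 and 4 against 7 and 7 under retinoic acid. Every C64 pair was apart, but under heat shock the nearest libraries had 0.572 CPM with IAA and 0.639 CPM without. Counts were above 0 in 20 of 24 libraries.

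The genes with the most counts kept no single direction with IAA, or overlapped in most backgrounds. Rn7sk was higher with IAA in 4 backgrounds and lower in 2, Rnu3a likewise, Rnu2-10 and Snord13 were lower in 3 and higher in 3, and Rnu12 was lower in 5, with libraries apart in 1 of them, under heat shock, where its mean with IAA was 0.426 times that without. Rn7sk had 22.4 and 13.2 CPM with IAA in B8 run 6, against 8.19 and 8.85 CPM in controls, and 6.99 and 11.6 CPM in B8 run 8, against 11.1 and 10.99 CPM, so that the means of the 2 runs of B8 went opposite ways; its ratio of means was 2.09 in run 6, with libraries apart, and 0.841 in run 8, with libraries overlapping. Of the identical U1 genes, Rnu1b1 was lower in 6 backgrounds and Rnu1b2 was lower in 3 and higher in 3, and since their reads cannot be assigned, no direction is given for either.

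**Figure D3:**
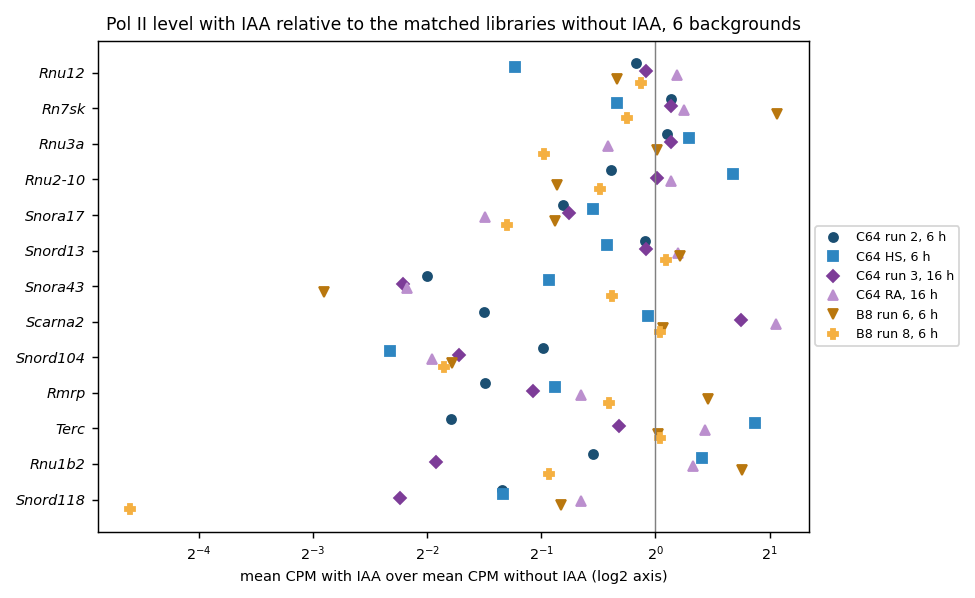
Mean CPM with IAA over mean CPM without IAA (x axis, log2 scale) for the 13 small RNA genes with 100 counts or more (y axis), with 1 symbol per background (means of 2 libraries each). All 6 symbols lie left of 1 for Snora17, Snora43, Snord104 and Snord118, while those of Rn7sk, Rnu3a, Rnu2-10 and Snord13 scatter round it; symbols of Rmrp, Terc, Rnu1b2 and Snord118 rest on few counts.

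Fold changes were tested with edgeR's quasi-likelihood test over all genes that passed the filter, with Benjamini-Hochberg adjustment at 0.05. These tests left out the pairing of libraries within a run, which entered only where a set or replicate block is named. DESeq2 called none of these genes in the 10 planned comparisons, but in HS against control, HS+IAA against IAA and both comparisons with B8 it gave no adjusted p for any of them. After IAA for 6 h in run 2, 0 of 7 small RNA genes tested were called, where 0.0433% of 16157 genes were (7 genes, all down). Snora43 had a log2 fold change of −1.98 ± 0.48 (SE) with an unadjusted p of 0.00162 and an edgeR adjusted p of 0.747, the only one of the 7 with an unadjusted p under 0.05. The study lists Snora43 among its genes with lower Pol II occupancy after 6 h of IAA, and proposes that some genes of that list may be false positives. With the study's likelihood-ratio test Snora43 was called here, at −1.98 ± 0.48 and an edgeR adjusted p of 0.0169. The share of all genes called with that test is not given here. With the set (a or b) as a block Snora43 was also called, at −1.97 ± 0.43 and an edgeR adjusted p of 0.000337, where 1.19% of all genes were. It passed the filter here only through the control libraries, with 9 and 15 counts in IAA cells, against 31 and 64 in control cells, so that its being tested was tied to its being high there. Without control library b its log2 fold change was −1.39. The other 6 ran from −0.79 ± 0.37 (Snora17) to 0.15 ± 0.35 (Rn7sk) on the log2 scale.

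After IAA for 16 h in run 3, 0 of 5 genes tested were called by edgeR and 0 had an unadjusted p under 0.05, with 0% of 16349 genes called. Their log2 fold changes lay between −0.07 ± 0.29 (Rnu12) and 0.15 ± 0.34 (Rnu3a, Rn7sk). Snora43, Snora17 and Snord104 fell under the filter there. For IAA under heat shock, 0 of 7 genes were called and 0% of all 16628 genes; Rnu12 had −1.21 ± 0.43 with an unadjusted p of 0.0212. For IAA under retinoic acid, 0 of 5 were called and 0% of all 16439; Snord104 had −1.94 ± 0.65 with an unadjusted p of 0.0223, and passed the filter only through the RA libraries, with 7 and 5 counts in RA+IAA cells, against 25 and 21 in RA cells. In B8 cells only Rnu12 passed the filter, at −0.22 ± 0.31 with an edgeR adjusted p of 0.746, where 5.68% of 13675 genes were called.

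Fits over several backgrounds were added after the counts had been seen. Over the 4 C64 backgrounds (16 libraries, the background as a block), 0 of 6 genes were called and 0.154% of 16227 genes were. Snora17 had −0.82 ± 0.24 with an edgeR adjusted p of 0.35, and with the replicate block −0.81 ± 0.23 and 0.027, where 4.33% of all genes were called. Snora43 and Snord104 entered this fit only when the minimum count was lowered to 10, and were then called at −1.81 ± 0.35 (edgeR adjusted p of 0.0261) and −1.68 ± 0.34 (0.0401); they passed that lower minimum mainly through the libraries without IAA. Over all 6 backgrounds, 0 of 5 genes were called and 0.88% of 15918 genes were. With no filter on low counts Snord104 had −1.72 ± 0.30 (edgeR adjusted p of 0.000663), Snora43 −1.68 ± 0.32 (0.0017), Snora17 −0.90 ± 0.24 (0.0738) and Snord118 −1.70 ± 0.50 (0.138). The share of all genes called with the lower minimum or with no filter is not given here. These genes had already been singled out in the same libraries, so such calls are descriptions. In the same 6 backgrounds the well-counted genes had log2 fold changes of 0.14 ± 0.15 (Rn7sk), −0.05 ± 0.20 (Snord13), −0.07 ± 0.20 (Rnu2-10), −0.13 ± 0.20 (Rnu3a) and −0.26 ± 0.17 (Rnu12), none called. Whether the genes differ from each other was not tested.

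A neighbour moved with Snora43 and Snora17. Dipk1b, a protein-coding gene that runs toward Snhg7 from the other strand, had 20.5 and 28.4 CPM in IAA cells, against 90.5 and 111 CPM in control cells of run 2 (log2 fold change −2.03, edgeR adjusted p of 0.00747). In B8 cells it averaged 7.45 CPM with IAA in run 6, against 42.4 CPM, and 14.1 CPM in run 8, against 54.1 CPM (−2.14, edgeR adjusted p of 0.000133). Counting ignored strand and fragments can be longer than the snoRNA genes, so Pol II of Dipk1b, of Snhg7 and of the snoRNA genes cannot be told apart. Snhg7os, another neighbour, had −0.53 in run 2 with an unadjusted p of 0.0390. Tex2, next to Snord104, had −0.01.

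The second question was how the genes behaved in heat shock, with and without TBP. In HS cells against control cells 0 of 9 genes were called, where 3.02% of 16332 genes were. Snora43 had the strongest difference, −1.50 ± 0.48 (edgeR adjusted p of 0.111); with the set block it was called, at −1.44 ± 0.48 and 0.0343, where 8.41% of all genes were. Again it passed the filter only through the control libraries, with 17 and 17 counts in HS cells, against 31 and 64 in control cells, and without control library b its log2 fold change was −0.90. Dipk1b fell beside it in the same comparison (−1.33, edgeR adjusted p of 0.0144). Of the 9 genes 8 had negative log2 fold changes, with a median of −0.51, against 0.03 over all genes tested, but without control library b only 3 of 9 were negative and the median was 0.12, so that the direction of the group rests on that library.

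In HS+IAA cells against IAA cells, 1 of 6 genes was called, Rnu12, where 1.4% of 16486 genes were. Its log2 fold change was −1.65 ± 0.38 with an edgeR adjusted p of 0.0446, and the 2 HS+IAA libraries (3.81 and 5.34 CPM) lay below the 2 IAA libraries (12.4 and 16.7 CPM). One of the HS+IAA libraries lay under the minimum count, with 18 and 28 counts in HS+IAA cells, against 57 and 80 in IAA cells. The HS+IAA libraries alone would not have carried Rnu12 past the filter, so its being tested was tied to its being high in IAA cells. The call was lost without IAA library a (0.0600) or b (0.435). Rn7sk had −1.24 ± 0.40 (edgeR adjusted p of 0.134), and with the set block it too was called, at −1.22 ± 0.42 and 0.0384, where 9.76% of all genes were. The other 4 genes ran from −0.38 ± 0.43 (Snora17) to 0.53 ± 0.51 (Rnu2-10).

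A fit of heat shock over both IAA states, added after the counts had been seen, called Rnu12 and Rn7sk, 2 of 6 genes, where 16.9% of 16239 genes were called. Rnu12 had −1.06 ± 0.30 (edgeR adjusted p of 0.0307) and Rn7sk −0.98 ± 0.27 (0.0271). Here too, 1 HS+IAA library of Rnu12 lay under the minimum count, with 18 counts. When each of the 8 libraries was left out in turn, Rnu12 lay between −1.37 and −0.88 with edgeR adjusted p of 0.00926 to 0.132 (called in 3 of 8), and Rn7sk lay between −1.16 and −0.80 with 0.0234 to 0.122 (called in 4 of 8). Both calls were lost without control library b, IAA library b or HS+IAA library b. Rnu3a (−0.41 ± 0.34), Snora17 (−0.50 ± 0.27), Snord13 (−0.09 ± 0.35) and Rnu2-10 (0.04 ± 0.42) were not called. The interaction of heat shock and IAA was not called for any of 9 genes, with Rnu12 at −1.05 ± 0.57 (unadjusted p of 0.0904), so a larger fall of Rnu12 without TBP was not shown. Poldip3, a gene divergent from Rnu12, fell too in this fit (−0.77, edgeR adjusted p of 0.0304); its part in the reads of Rnu12 was not tested.

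The third question was retinoic acid. In RA cells against control cells 0 of 7 genes were called, where 0.0183% of 16350 genes were. Rnu12 had −0.80 ± 0.34 (edgeR adjusted p of 0.806), and with the replicate block it was called, at −0.81 ± 0.28 and 0.0385, but so were 11.4% of all genes, so that 1 of 7 is near the background. In RA+IAA cells against IAA cells 0 of 5 genes were called by edgeR and 0% of all 16395 genes, and 0 of the 5 had an unadjusted p under 0.05 (Rnu12, −0.52 ± 0.34). Over both IAA states, in a fit added after the counts had been seen, 0 of 5 genes were called, where 1.47% of 16237 genes were; Rnu12 had −0.66 ± 0.22 (edgeR adjusted p of 0.221), and with the replicate block −0.65 ± 0.21 and 0.0325, 1 of 5 genes where 14.4% of all genes were called. Rn7sk had 0.33 ± 0.21 in the same fit. The mESC markers summed to 301 to 432 CPM in RA libraries, against 778 to 1075 CPM in control libraries of run 3. Esrrb made up most of these sums. The part of this difference in the values above was not tested.

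**Figure D4:**
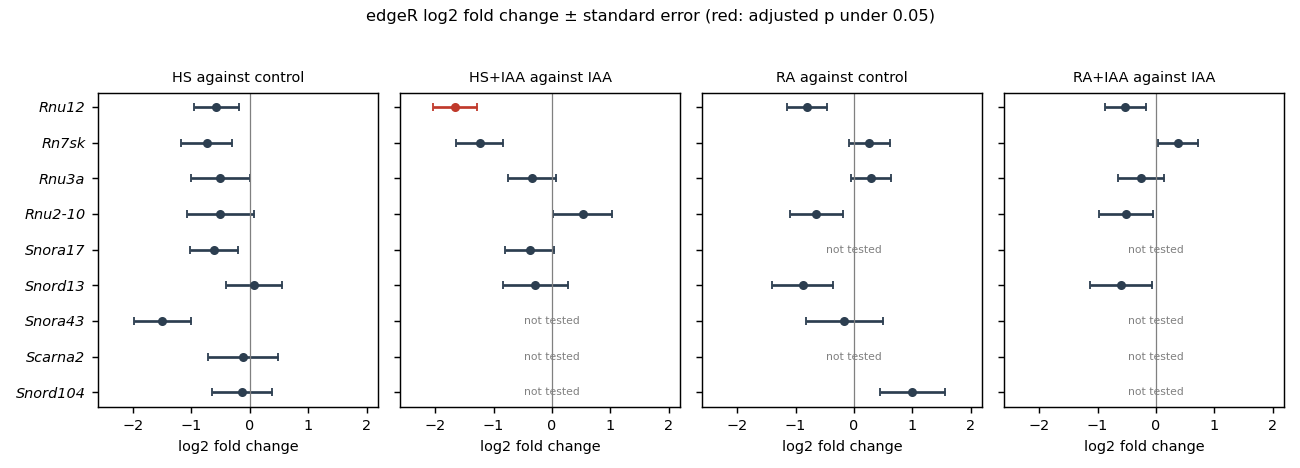
edgeR log2 fold change (x axis) with its standard error (bars) of the 9 tested small RNA genes (y axis) in HS against control, HS+IAA against IAA, RA against control and RA+IAA against IAA; red marks an adjusted p under 0.05 and genes under the filter are marked as not tested. Only Rnu12 in HS+IAA against IAA is red, at −1.65, and Rn7sk lies at −1.24 beside it.

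The fourth question was whether loss of Tbpl1 altered the levels. In B8 control cells against C64 control cells of run 2, 0 of 3 genes were called by edgeR and 0% of all 16316 genes, with 0 of the 3 at an unadjusted p under 0.05. Rnu12 had 0.03 ± 0.39, Rn7sk 0.10 ± 0.37 and Rnu3a 0.60 ± 0.49. Line and run cannot be told apart in this comparison. Snord118 had 3, 2, 11 and 12 counts in B8 controls, against 5 and 5 counts in the deeper C64 controls of run 2 and 8 and 10 in those of run 3. The interaction of line with IAA for 6 h was not called for any of 3 genes.

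By class, the summed level of the 2 H/ACA genes showed the IAA difference in each background: 9.02 ± 2.32 CPM with IAA and 21.5 ± 9.77 without it in run 2, 6.80 ± 2.06 in HS+IAA and 10.8 ± 0.725 in HS cells, 3.24 ± 1.60 with IAA and 8.93 ± 2.26 without it in run 3, 2.32 ± 1.63 in RA+IAA and 8.33 ± 3.05 in RA cells (SD, n = 2 each). In B8 cells of both runs it was 3.08 ± 1.72 CPM with IAA and 6.99 ± 1.82 without it (SD, n = 4 each). The C/D class summed to 14.4 ± 3.78 CPM with IAA in B8 cells and 23.1 ± 5.84 without it (SD, n = 4 each), and to 18.5 ± 0.0263 CPM with IAA for 16 h and 21.3 ± 2.73 in the control cells (SD, n = 2 each). The Pol III class, mostly Rn7sk, went opposite ways in the 2 runs of B8, with 19.4 ± 7.74 CPM with IAA and 9.83 ± 0.00491 without it in run 6, and 11.2 ± 3.54 with IAA and 13.8 ± 0.762 without it in run 8 (SD, n = 2 each). In C64 cells it summed to 5.91 ± 0.274 CPM in HS+IAA and 8.50 ± 0.926 in HS cells, with libraries apart, and overlapped in the other 3 backgrounds (SD, n = 2 each). The libraries of the scaRNA class overlapped in 5 backgrounds and were apart under retinoic acid, with 3.26 and 3.49 CPM in RA+IAA cells, against 1.14 and 2.10 CPM in RA cells.

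The protein partners of these RNAs, listed by their function, were counted in the same fits. After IAA for 6 h and for 16 h, none of the tested genes of SNAPc and the promoter factors of snRNA and Pol III genes (13), the Integrator complex that cuts snRNA ends (13), snoRNP proteins (20), the 7SK RNP (7), RNase P and MRP proteins (9), telomerase partners (3) or the SMN and Sm core (13) was called by edgeR or DESeq2; of the 78 genes tested 0 after 6 h and 1 after 16 h had an unadjusted p under 0.05. In B8 cells with IAA 4 of 68 were called, where 5.68% of all genes were, a share close to the background: Snrpe (0.62), Pop5 (0.82) and Wrap53 (0.43) rose and Ints3 fell (−0.51) on the log2 scale. In HS cells against control cells 2 of 78 were called, where 3.02% of all genes were: Coil, the scaffold protein of Cajal bodies, rose by 2.06 (edgeR adjusted p of 0.000725), and Pou2f1, the octamer factor Oct-1, fell by 0.95 (0.0488). In HS+IAA against IAA cells 1 of 78 was called, where 1.4% of all genes were, and Coil rose by 2.10 (0.00747).

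In the heat shock fit over both IAA states 4 of 13 SNAPc and promoter factors fell and none rose (Pou2f1, Snapc2, Ice1 and Brf1, the last a TFIIIB subunit of tRNA gene promoters rather than of snRNA promoters), with a list median of −0.25 against 0.04 over all genes. Of the 13 Integrator genes 3 fell (Ints4, Ints6 and Ints7), with a median of −0.29. Of the 20 snoRNP genes 5 rose (Coil, Shq1, Naf1, Nufip1 and Snu13) and the median was 0.01. Of the 7 genes of the 7SK RNP 3 rose, all P-TEFb subunits: Cdk9 (0.75), Ccnt2 (0.69) and Ccnt1 (0.51), with a median of 0.17. Pop1 (−0.53) and Tert (−0.59), the telomerase enzyme, fell and Snrpe rose (0.44). Against a background of 16.9% of genes called, these shares are descriptions of the lists.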

How the data were processed

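Pol II CUT&Tag was measured in 24 libraries of 12 groups. Per the file headers and the study's methods, the authors aligned reads with Bowtie2 to mm10 (GRCm38), kept PCR duplicates, subsampled each library to a set number of reads per run, and counted read pairs per gene with featureCounts 2.0.0 on Ensembl release 102, without strand and without pairs that touch more than 1 gene. The deposited values are raw counts; 14 columns held in more than 1 table were identical (0 differed) and were used once. No value of the deposited table of read numbers and spike-in factors, or of the TATA and TATA-less gene lists, entered a calculation.

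Counts were analysed with edgeR 4.0.16 in R 4.3.3: TMM factors, filterByExpr with a minimum count of 20, glmQLFit and glmQLFTest, and Benjamini-Hochberg adjustment over all genes tested, only with the groups compared; the B8 fit had the run as a block. The study's own edgeR test was the likelihood-ratio test, which is an alternative here, as is DESeq2 1.42.0. The fits were tested on simulated data. Other alternatives were RLE factors, plain library totals, minimum counts of 10 or none, a block, all groups of a run together, and leaving out each library. Same-numbered libraries deviated together in run 3 (correlations of 0.470 to 0.655 over 6 pairs) and same-named ones in run 2 (0.125 to 0.560 over 6 pairs). The column names of run 2 and the labels' numbers of run 3 gave this pairing. It entered only the alternative fits with a set or replicate block, and the main fits left it out. For IAA for 6 h, 7 genes of all were called without the block and 193 with it. For IAA for 16 h these were 0 and 353. B8 libraries did not (−0.0531 in run 6, −0.00589 in run 8). No pair of libraries agreed within sampling noise. The B8 libraries were placed in runs 6 and 8 by reading their names beside the deposited table of read numbers.

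The members and the lists of related genes were chosen with earlier results of these data known, and neighbouring genes were looked up after values were seen. Genes named with values were Rn7sk, Rmrp, Rpph1 and Terc, the up to 6 best-counted genes of each class, those called in any comparison and those with the smallest p. Sequences are from the RefSeq genome of GRCm38.p6. Intervals, errors and floors cover counting and library spread only, since duplicates were kept and read pairs are not independent molecules.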

Additional observations from a re-analysis of the deposited data

Results flagged for a closer look

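Terc was singled out because IAA and no IAA separated in opposite directions in untreated run 2 and under heat shock, the 1 such case in 90 looks, in which 5 pairs of backgrounds were compared for each of 18 genes and genes with a tested interaction were left to that test. Between pairs that were not among those 5, Rn7sk lay lower with IAA under heat shock (−1.17 CPM) and higher in B8 run 6 (9.27 CPM), and Snord13 lower under heat shock (−1.29 CPM) and higher in B8 run 8 (0.340 CPM), with libraries apart each time and no test of the difference. In untreated cells of run 2 Terc had 1 and 4 counts with IAA, against 6 and 11 counts without it, a difference of −1.29 CPM. Under heat shock it had 6 and 9 counts with IAA, against 2 and 6 counts without it, a difference of 0.678 CPM. The nearest libraries there had equal counts, and 1.27 CPM with IAA against 1.21 CPM without it. The difference between these 2 effects was not tested, since Terc fell under the filter on low counts. In the 4 other backgrounds the libraries overlapped. In 13 sets of 4 B8 libraries, no library stood apart from the other 3 by Dixon's criterion.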

How the results depend on the processing

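Under another setting 103 counts of called small RNA genes were as reported, 12 were higher and 2 lower; without 1 library 69 were as reported, 1 was higher and 8 lower. IAA for 6 h gave 1 call (Snora43) with the likelihood-ratio test and with the set block, and heat shock likewise 1 and 1 (Snora43). With the set block 1.19% and 8.41% of all genes were called in these 2 comparisons. The shares of all genes called with the likelihood-ratio test, at a minimum count of 10 or with no filter are not given here. Heat shock with IAA against IAA gave 0 with library totals (Rnu12, adjusted p of 0.0752) and 0 with all groups in 1 fit (0.0852), and 2 with the set block. The replicate block gave 1 call (Rnu12) for retinoic acid, 1 for retinoic acid over both IAA states (Rnu12), and 1 for IAA over 4 backgrounds (Snora17). IAA over 4 backgrounds gave 2 calls at a minimum count of 10 and 2 with no filter (Snora43 and Snord104 in both); over 6 backgrounds these were 1 (Snora43) and 2. The block changed no other call, although it raised the number of all genes called, for retinoic acid from 3 to 1863. Leaving out 1 library gave 0 to 1 calls for heat shock, 0 to 1 for heat shock with IAA against IAA, and 0 to 2 for heat shock over both IAA states. It turned the sign of uncalled log2 fold changes of Rnu3a (−0.41 to 0.98) and Rnu2-10 (−1.12 to 0.42) after IAA for 6 h, Snord13 (−0.47 to 0.51) after IAA for 16 h, and Rnu12 (−0.44 to 0.67) in B8 against C64 controls. The cause of these changes was not tested. Of 72 class sums, 6 moved beyond 1 SD with library totals. DESeq2 gave no adjusted p for any small RNA gene in 5 of the 14 comparisons. Depth limits most of these genes: 5 of the 18 held under 100 counts over 24 libraries, and those under the filter had no test in single comparisons.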
